A study of Homo sapiens with 12 samples.

Results

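The transcripts described here are those of 9 Notch pathway genes, the receptors NOTCH1, NOTCH2 and NOTCH3, the ligands JAG1, JAG2 and DLL1, and the target genes HES1, HEY1 and HEYL. They were chosen by symbol from the 60107 gene identifiers of the count table, and the choice was made knowing that NOTCH3 was higher with carmofur in U251T cells. Values of the 9 genes in that contrast are therefore given as a description, with no test.

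Notch receptors are single-pass membrane proteins that are activated by Jagged or Delta-like ligands on a neighboring cell. Ligand binding allows cleavage by an ADAM protease and then by γ-secretase, which frees the intracellular domain to enter the nucleus, where it joins the DNA-binding protein RBPJ and a Mastermind-like coactivator at genes such as HES1 and the HEY genes. In the brain the pathway is known for keeping neural progenitors undifferentiated, and it has been studied in glioma stem-like cells, while NOTCH3 is best known for its role in the mural cells of small arteries.

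RNA was sequenced from U251 glioblastoma (GBM) cells, an established human line, labelled as U251P or U251T. Each was treated with carmofur, an inhibitor of the ceramide-degrading enzyme acid ceramidase (ASAH1), or with DMSO as vehicle, and each of the 4 groups had 3 libraries. All cells were starved of serum for 16 h and then kept for 24 h in medium with 10% FBS, B27-equivalent supplement, epidermal growth factor and basic fibroblast growth factor, and the labels place the drug in that final 24 h. The study's methods place the drug in the starvation as well, and they list no supplement or growth factors in the medium with 10% FBS. The labels do not say what P and T stand for or how the lines differ. The study's methods describe its experiments in general as biological triplicates with technical replicates, but the labels do not tie the 3 libraries of a group to separate cultures, so that p-values measure the spread between these libraries, part of which may be technical.

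Reads came from transcript 3′ ends, which makes levels of long and short genes comparable without a correction for length. Levels are given as CPM, the counts scaled to a library total of 1e+06. U251P libraries held 3295045 to 6350873 counts in total, and U251T libraries held 383633 to 2817379. A count of 0 allowed a level of up to 0.472 to 0.910 CPM in U251P libraries and 1.06 to 7.82 CPM in U251T libraries (3 counts, counting error only). The libraries labelled U251T differed from U251P in genes that bear on the label of a human GBM line, not all in 1 direction. Of 8 glioblastoma markers, VIM and GFAP were higher in U251T and CD44, EGFR, FABP7, NES, S100A6 and TNC were lower in vehicle (each passed edgeR's test), and the summed level of the list was 8673 to 15233 CPM in U251T and 6003 to 7826 CPM in U251P, most of it in U251T from VIM, the filament vimentin. The summed level of 3 human MHC class I genes (B2M, HLA-B and HLA-C) was 1.85 to 20.9 CPM in U251T and 1647 to 2074 CPM in U251P. NES, the neural progenitor filament nestin, had 0 to 2 counts in each U251T library and 1512 to 2636 in each U251P library, whereas GFAP, the astrocyte filament, had 8 to 154 counts in U251T and 0 or 1 in U251P. Processed pseudogenes took 8.82 to 9.77% of counts in U251T and 0.164 to 0.191% in U251P. What sets the U251T libraries apart was not tested, and every comparison with them below concerns libraries carrying that label.

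**Figure D1:**
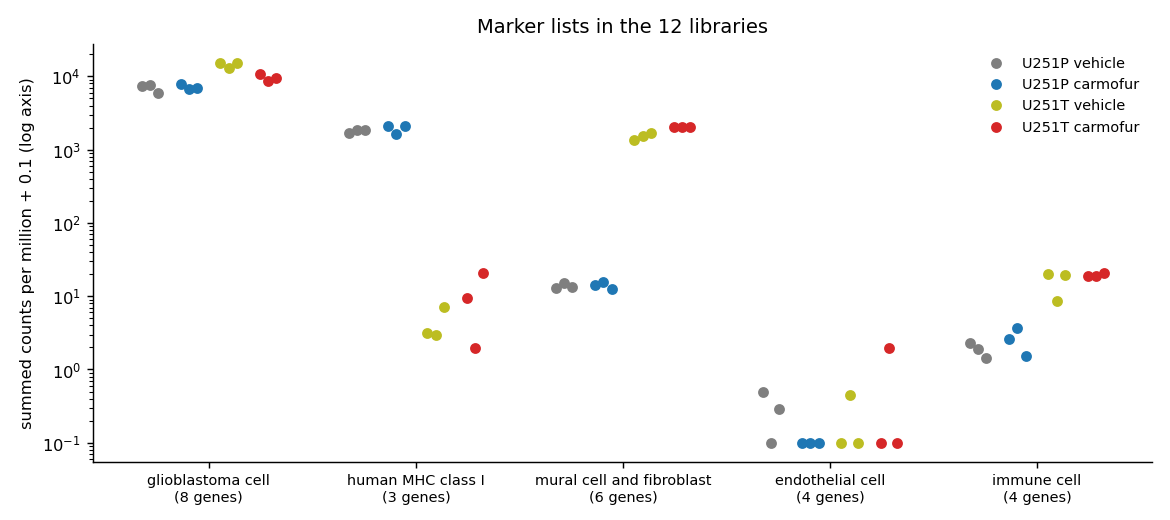
Summed CPM (log axis, 0.1 added) of marker lists in each of the 12 libraries, with a point per library and colors for the 4 groups. MHC class I genes sit at 1647 to 2074 CPM in U251P and at 1.85 to 20.9 CPM in U251T, while the mural cell and fibroblast list sits at 12.5 to 15.3 CPM in U251P and at 1355 to 2049 CPM in U251T.

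The 250 bases before the start of transcription are shown for HES1, the most abundant of the target genes, and for NOTCH3 and JAG1, the receptor and the ligand with the largest difference between vehicle and carmofur in U251T. They were read from RefSeq (GRCh38.p14). Windows were taken for 7 of the 9 genes, and those of DLL1 and HEY1 were not examined. Capitals mark TGGGAA or its complement TTCCCA, the core letters of the sequence bound by RBPJ.
HES1 (chr3:194135898-194136147, + strand): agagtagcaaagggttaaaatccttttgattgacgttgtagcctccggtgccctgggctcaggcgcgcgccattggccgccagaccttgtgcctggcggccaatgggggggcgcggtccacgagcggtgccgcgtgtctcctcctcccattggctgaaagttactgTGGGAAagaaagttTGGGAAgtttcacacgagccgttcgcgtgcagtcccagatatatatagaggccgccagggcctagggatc
NOTCH3 (chr19:15200996-15201245, - strand): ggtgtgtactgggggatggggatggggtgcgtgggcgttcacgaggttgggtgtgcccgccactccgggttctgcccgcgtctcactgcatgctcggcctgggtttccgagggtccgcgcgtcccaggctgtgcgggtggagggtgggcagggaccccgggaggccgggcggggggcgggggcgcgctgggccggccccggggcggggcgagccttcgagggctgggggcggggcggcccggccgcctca
JAG1 (chr20:10674000-10674249, - strand): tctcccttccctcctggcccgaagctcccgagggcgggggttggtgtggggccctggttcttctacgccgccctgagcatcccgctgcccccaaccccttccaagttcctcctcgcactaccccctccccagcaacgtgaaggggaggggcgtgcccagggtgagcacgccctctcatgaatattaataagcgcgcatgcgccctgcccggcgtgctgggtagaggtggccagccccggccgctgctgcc

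HES1 held 2 matches, which began 84 and 70 bases before the start, both as TGGGAA. The HEYL window also held 2 matches, whereas NOTCH1, NOTCH2, NOTCH3, JAG1 and JAG2 held 0. Of 35116 RefSeq windows of the same length, 20.8% held at least 1 match on either strand and 2.90% held at least 2. A match is a run of letters and not a measured binding site.

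Without drug, U251P and U251T libraries differed in which receptors and ligands were abundant. In U251P vehicle libraries the order of mean levels was JAG1 (163 ± 40.6 CPM, SD, n = 3), HES1 (153 ± 29.4), NOTCH2 (36.9 ± 1.54), NOTCH1 (14.7 ± 1.57) and HEY1 (7.68 ± 0.829). JAG1 and HES1 overlapped, and each of the next 3 genes was apart from its neighbors. DLL1, JAG2, NOTCH3 and HEYL followed with group means of at most 0.764 CPM and overlapping ranges.

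In U251T vehicle libraries HES1 (52.9 ± 8.08 CPM, SD, n = 3) and JAG1 (35.4 ± 12.7) again came first and overlapped. JAG2 (12.3 ± 1.62) was apart from both neighbors in the order, and NOTCH3 (7.52 ± 1.41), NOTCH2 (7.14 ± 1.59), DLL1 (6.58 ± 2.67) and NOTCH1 (2.03 ± 2.92) overlapped in turn. HEY1 had 1 count in 1 of the 3 libraries.

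**Figure D2:**
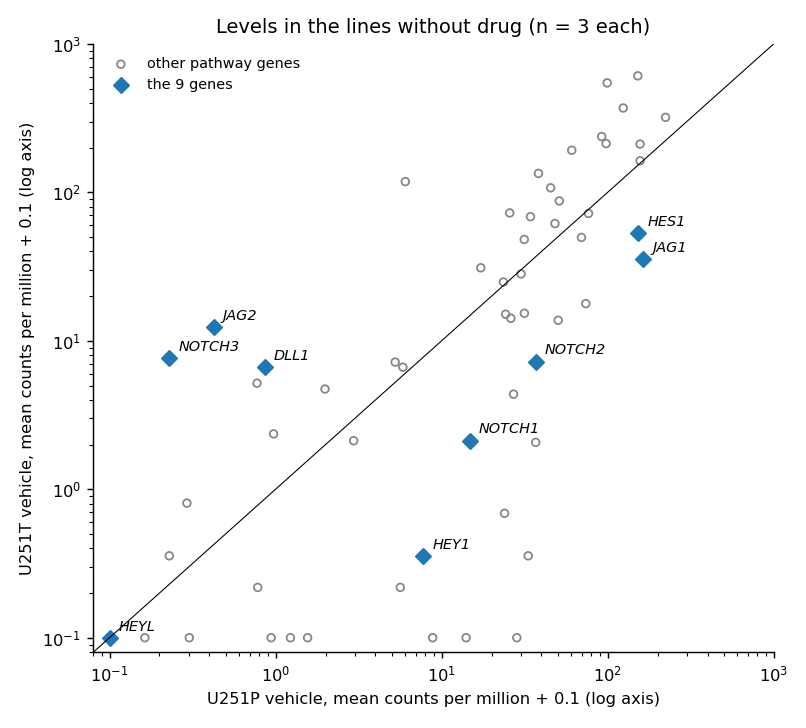
Mean CPM with 0.1 added (log axes, n = 3 each) in U251P vehicle (horizontal) and U251T vehicle (vertical), with diamonds for the 9 genes, circles for 52 other Notch pathway genes and a line of equality. JAG2, NOTCH3 and DLL1 lie above the line, NOTCH1, NOTCH2, JAG1, HES1 and HEY1 lie below it, and HEYL sits at 0 in both lines.

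The lines were compared in vehicle by edgeR's quasi-likelihood test over 12047 genes, of which 86.9% had an adjusted p under 0.05 (39.3% higher and 47.6% lower in U251T), with a median log2 difference over all genes of -0.33. Of the 8 genes that could be fitted, 7 were tested and 7 passed, a share close to that background. JAG2, DLL1 and NOTCH3 passed the filter on low counts only through U251T, and NOTCH1 and HEY1 only through U251P. For these genes the filter itself favored a difference between the lines, so that the share is a description. NOTCH1 was lower in U251T by a log2 difference of -2.91 (SE 0.513, edgeR adjusted p = 6.15e-06) and NOTCH2 by -2.51 (SE 0.289, edgeR adjusted p = 3.83e-09). JAG1, the main Jagged ligand in both lines, differed by -2.40 (SE 0.212, edgeR adjusted p = 1.76e-11), whereas JAG2 was higher in U251T by 4.92 (SE 0.518, edgeR adjusted p = 6.81e-10). DLL1, a Delta-like ligand, was higher by 3.37 (SE 0.509, edgeR adjusted p = 5.55e-07). HES1, a transcriptional repressor, was lower in U251T by a log2 difference of -1.60 (SE 0.167, edgeR adjusted p = 5.31e-10). For all 8 fitted genes the vehicle libraries of the lines did not overlap, as for 86.8% of all genes.

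Several of these folds rest on few counts in the lower line. JAG2 had 5 counts over the 3 U251P vehicle libraries and 59 over the 3 of U251T, a ratio of 34.3 per total count with a 95% counting interval of 13.9 to 109.6. DLL1 had 9 and 36 counts, a ratio of 11.6 (5.50 to 27.5). HEY1, a repressor of the HES-related family, had 103 counts in U251P and 1 in U251T, which put it 35.4-fold lower in U251T (6.22 to 1412) with a fitted log2 difference of -4.92 (SE 0.785, edgeR adjusted p = 1.36e-06). NOTCH3, whose U251T vehicle libraries entered the choice of genes, had 2 counts in U251P and 32 in U251T, a ratio of 46.5 (11.9 to 401), given without a test.

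NOTCH3 (ENSG00000074181, chr19:15159038-15200981, - strand, GENCODE 29) was the receptor with the largest difference between carmofur and vehicle. In U251T, vehicle libraries held 7.69, 6.03 and 8.83 CPM, from 10, 17 and 5 counts. With carmofur they held 59.8, 34.3 and 67.8 CPM, from 58, 37 and 26 counts. The lowest carmofur library was above the highest vehicle library, and the group means were 54.0 ± 17.5 and 7.52 ± 1.41 CPM (SD, n = 3 each). The fitted log2 fold change was 2.85 (SE 0.348), and leaving out any 1 of the 6 libraries gave 2.66 to 3.10. In U251T 17.1% of the 7204 genes fitted had an edgeR adjusted p under 0.05 (8.88% higher and 8.2% lower with carmofur), and 32.3% had groups that did not overlap (15.8% with carmofur higher).

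In U251P, NOTCH3 was near 0 with and without the drug. The vehicle libraries had 1, 0 and 1 counts and the carmofur libraries 0, 3 and 2. The ratio of carmofur to vehicle per total count was 2.07, with a counting interval of 0.339 to 21.7, which includes the ratio of 7.28 (4.90 to 11.1) found in U251T.

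Mural cells are a known source of NOTCH3, and markers of that kind were present in the libraries labelled U251T. The summed level of 6 mural cell and fibroblast genes (PDGFRB, RGS5, CSPG4, ACTA2, COL1A1 and DCN) was 1355 to 1662 CPM with vehicle and 2019 to 2049 CPM with carmofur, against 12.5 to 15.3 CPM in U251P. All 6 had counts in U251T, CSPG4 only 0 to 3 in each library, and most of the sum was COL1A1, the type I collagen chain. In vehicle, ACTA2, COL1A1, DCN and PDGFRB were higher in U251T than in U251P (each passed edgeR's test). RGS5 was not, with overlapping groups of 8.12 ± 4.42 CPM in U251T and 6.92 ± 1.16 CPM in U251P (SD, edgeR adjusted p = 0.814). With carmofur in U251T, ACTA2, the smooth muscle actin, rose from 37.7 ± 9.34 to 78.3 ± 9.39 CPM (SD, n = 3 each, log2 fold change 1.11, edgeR adjusted p = 0.00283) and COL1A1 rose by 0.40 (edgeR adjusted p = 0.0285). RGS5 (0.84, edgeR adjusted p = 0.291) and DCN (0.75, edgeR adjusted p = 0.199) did not pass, and PDGFRB, the pericyte receptor, and CSPG4 were not fitted. PDGFRB held 6.30 ± 0.705 CPM with vehicle and 4.79 ± 1.91 CPM with carmofur. Their part in the NOTCH3 difference was not tested. In bulk RNA a change in the number of cells of a type and a change in RNA per cell cannot be told apart.

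**Figure D3:**
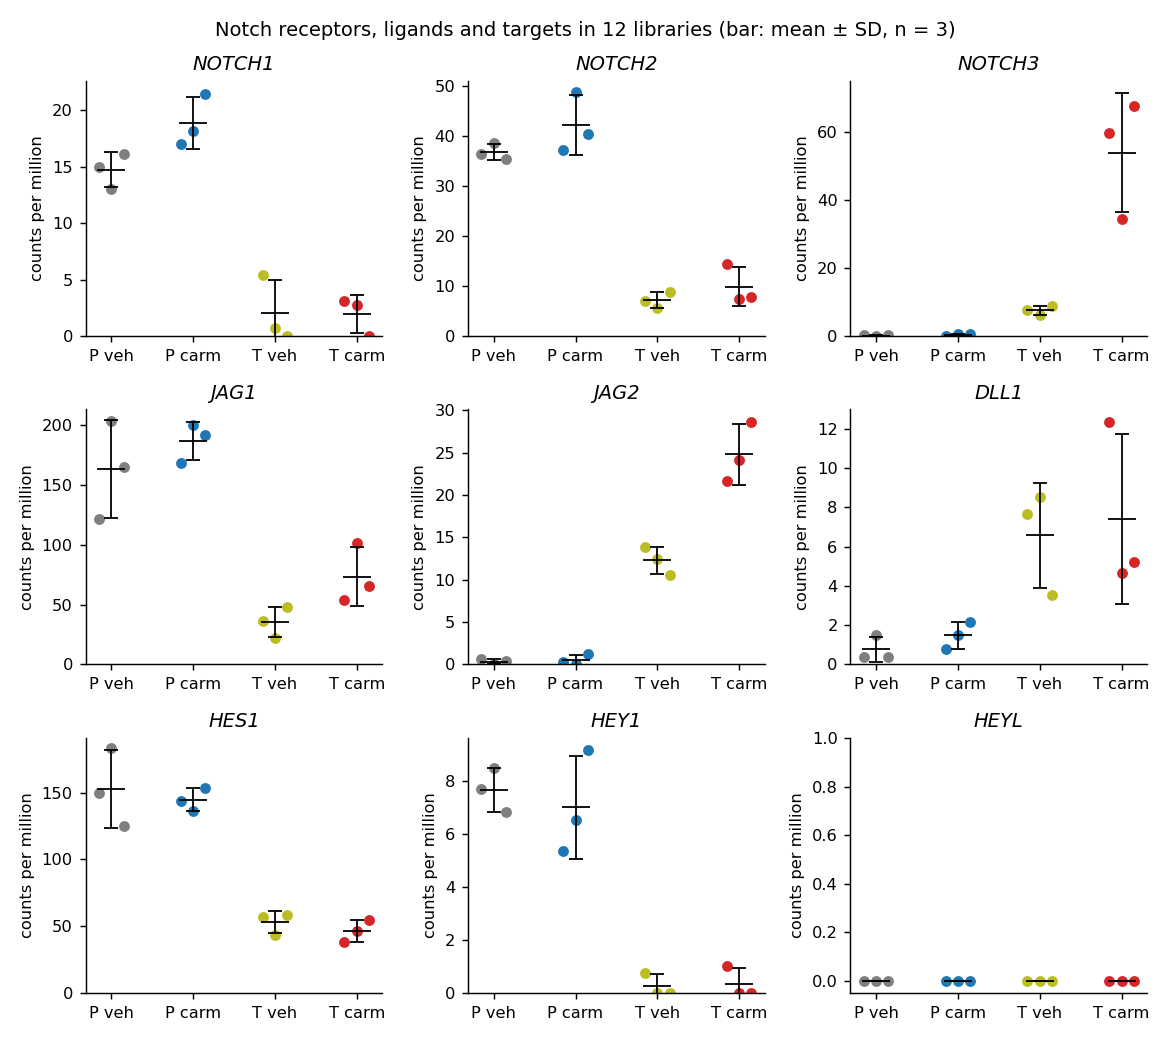
CPM of the 9 genes in the 12 libraries (linear axes), with a point per library and a bar for the mean ± SD (n = 3) in U251P vehicle, U251P carmofur, U251T vehicle and U251T carmofur. NOTCH3, JAG1 and JAG2 carmofur libraries of U251T sit above all 3 vehicle libraries, and HEYL is at 0 throughout.

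NOTCH1 (ENSG00000148400, chr9:136494433-136545786, - strand) and NOTCH2 (ENSG00000134250, chr1:119911553-120069626, - strand), the widely expressed receptors, were measured mainly in U251P. NOTCH1 vehicle libraries of U251P held 15.01, 13.0 and 16.1 CPM and carmofur libraries 17.0, 18.1 and 21.5 CPM. The groups did not overlap, as for 8.54% of the 11426 genes fitted in U251P, and the log2 fold change of 0.36 (SE 0.185) did not pass the test (edgeR adjusted p = 0.999). NOTCH2 vehicle libraries held 36.5, 38.5 and 35.5 CPM and carmofur libraries 37.3, 48.9 and 40.5 CPM. These groups overlapped, with a log2 fold change of 0.23 (SE 0.146, edgeR adjusted p = 0.999).

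In U251T neither receptor reached the counts needed for the fit. NOTCH1 counts were 7, 2 and 0 in vehicle libraries and 3, 3 and 0 in carmofur libraries, a ratio of 1.28 per total count (counting interval 0.376 to 4.04). NOTCH2 counts were 9, 16 and 5 in vehicle libraries and 14, 8 and 3 in carmofur libraries, a ratio of 1.61 (0.905 to 2.82). Both groups overlapped for both genes. NOTCH4, the remaining receptor, had 0 to 3 counts in each of the 12 libraries.

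JAG1 (ENSG00000101384, chr20:10637684-10673999, - strand), a Jagged ligand of Notch receptors, was the most abundant of the 9 genes in U251P. Its vehicle libraries held 122, 203 and 165 CPM and its carmofur libraries 168, 199.6 and 192 CPM. The carmofur values lay within the range of vehicle, and the log2 fold change was 0.23 (SE 0.151, edgeR adjusted p = 0.999). In U251T the vehicle libraries held 36.1, 22.4 and 47.7 CPM and the carmofur libraries 53.6, 101 and 65.2 CPM. These groups did not overlap, and the log2 fold change was 1.20 (SE 0.294). Without carmofur replicate 2, the highest library, it was 0.80.

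JAG2 (ENSG00000184916, chr14:105140981-105168824, - strand), the other Jagged ligand, was also higher with carmofur in U251T. Vehicle libraries held 13.8, 12.4 and 10.6 CPM, from 18, 35 and 6 counts, and carmofur libraries 21.7, 24.1 and 28.7 CPM, from 21, 26 and 11 counts. The groups did not overlap, and the log2 fold change of 0.93 (SE 0.336) ranged from 0.85 to 1.03 with each library left out. In U251P, JAG2 counts were 3, 0 and 2 in vehicle libraries and 2, 0 and 5 in carmofur libraries, and it was not fitted.

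DLL1 (ENSG00000198719, chr6:170282206-170306565, - strand) did not reach the filter within either line. In U251T it held 7.69, 8.52 and 3.53 CPM with vehicle and 12.4, 4.64 and 5.21 CPM with carmofur. The groups overlapped, and the ratio per total count was 1.02 (counting interval 0.551 to 1.82). In U251P its counts were 2, 5 and 2 in vehicle libraries and 5, 9 and 9 in carmofur libraries, a ratio of 2.12 (0.943 to 5.20), and the groups overlapped in CPM.

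HES1 (ENSG00000114315, chr3:194136145-194138732, + strand), the most abundant target, had overlapping levels in carmofur and vehicle libraries of both lines. Its U251T vehicle libraries held 56.9, 43.7 and 58.3 CPM and its U251T carmofur libraries 38.2, 46.4 and 54.7 CPM. The groups overlapped, with a log2 fold change of -0.20 (SE 0.235) whose values ran from -0.34 to -0.060 when single libraries were omitted. In U251P the vehicle libraries held 149, 184 and 125 CPM and the carmofur libraries 144, 136 and 153 CPM, which lay within the vehicle range (log2 fold change -0.045, SE 0.122, edgeR adjusted p = 0.999). HES1 carries the 2 RBPJ core matches printed above.

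HEY1 in U251P held 7.70, 8.498 and 6.84 CPM with vehicle and 5.35, 6.55 and 9.17 CPM with carmofur. These groups overlapped (log2 fold change -0.12, SE 0.277, edgeR adjusted p = 0.999). In U251T it had 1 count in vehicle replicate 1, 1 count in carmofur replicate 1 and 0 in the other libraries. HEYL (ENSG00000163909, chr1:39624153-39639945, - strand), a HEY relative expressed in vascular smooth muscle, had 0 counts in all 12 libraries, so that no level above the limits given for a count of 0 was detected.

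**Figure D4:**
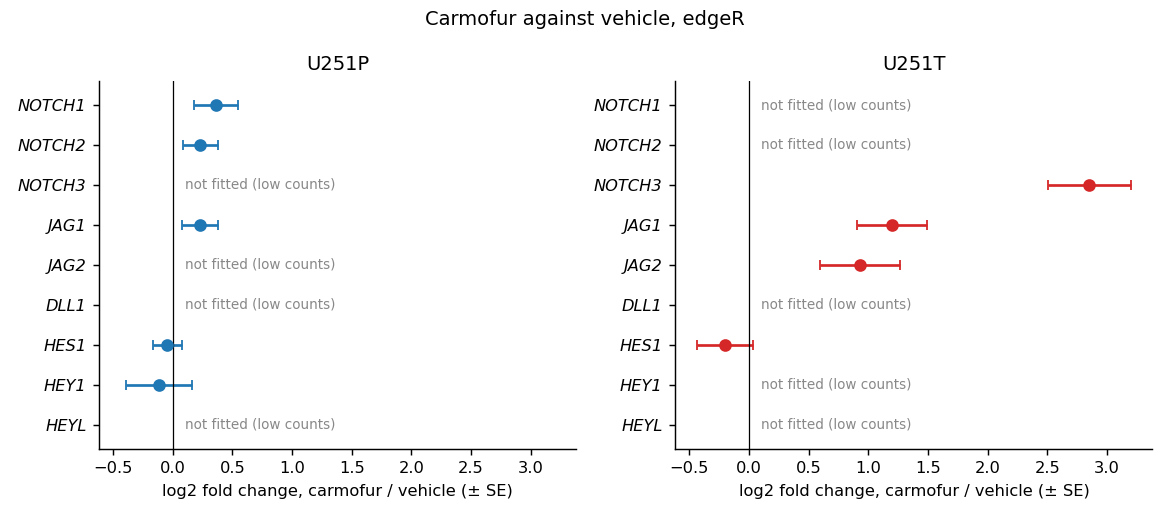
Log2 fold change of carmofur over vehicle (± SE, edgeR, 3 libraries a group) for the 9 genes in U251P (left) and U251T (right), where "not fitted" marks genes below the count filter. The 5 values in U251P lie between -0.12 and 0.36, and in U251T NOTCH3 (2.85), JAG1 (1.20) and JAG2 (0.93) lie above 0 while HES1 is at -0.20.

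In U251P, 5 of the 9 genes could be fitted and 0 passed, beside 0 of 11426 genes (0%) over the whole table by edgeR and 0 by DESeq2. At an unadjusted p under 0.05 the count was 0 of these 5 and 402 of all genes (3.52%). In U251T, 4 of the 9 genes could be fitted, and 3 had groups that did not overlap, all higher with carmofur (beside 32.3% of all genes in either direction and 15.8% higher). NOTCH3 is among these 3, and its rise in this contrast led to the choice of genes. It passed the filter on low counts only through its carmofur libraries. NOTCH2, with a similar vehicle mean in U251T (7.14 CPM, beside 7.52 for NOTCH3), was not fitted. The count is therefore a description and shows no excess over those shares. NOTCH3 was not fitted in U251P, and the difference between the lines in its response was not tested, because the U251T contrast chose it. With carmofur the order of levels in U251T became JAG1 (73.3 ± 24.8 CPM, SD, n = 3), NOTCH3 (54.0 ± 17.5) and HES1 (46.4 ± 8.29), which overlapped in turn, followed by JAG2 (24.8 ± 3.56), apart from HES1.

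The other genes of the pathway were 52 receptors, ligands, processing enzymes, nuclear cofactors, turnover factors and targets. In U251T, 27 of them could be fitted, and 2 rose, 1 fell and 24 did not pass the test (11.1% passed, beside 17.1% of all genes). Groups did not overlap for 8 of the 27 (29.6%, beside 32.3% of all genes). Their median log2 fold change was 0.040, beside 0.0098 over all genes. In U251P, 38 could be fitted and 0 passed, with a median of -0.0042.

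FBXW7, the ubiquitin ligase subunit that marks the Notch intracellular domain for degradation, rose with carmofur in U251T. Vehicle libraries held 138, 78.8 and 185 CPM and carmofur libraries 419.7, 313 and 302 CPM. The groups did not overlap, and the log2 fold change was 1.45 (SE 0.220, edgeR adjusted p = 0.000145), and 1.15 to 1.69 over the alternatives. In U251P it held 37.3, 39.5 and 38.0 CPM with vehicle and 28.97, 39.3 and 39.8 CPM with carmofur, a log2 fold change of -0.061 (SE 0.156, edgeR adjusted p = 0.999). The response differed between the lines by 1.48 (SE 0.273, edgeR adjusted p = 0.000492, interaction of line and treatment over 13070 genes, a test added after the data were seen). This test was passed by 560 of the 13070 genes and by no other pathway gene. FBXW7 was named because it passed in U251T, and that response is part of the difference.

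MAML2, a Mastermind-like coactivator of the Notch complex, rose in U251T as well. Vehicle libraries held 42.3, 50.8 and 51.2 CPM and carmofur libraries 94.9, 83.5 and 151 CPM. The groups did not overlap, and the log2 fold change was 1.11 (SE 0.231, edgeR adjusted p = 0.00245). In U251P it was 0.34 (SE 0.158, edgeR adjusted p = 0.999), and the difference between the lines, 0.67, did not pass (edgeR adjusted p = 0.216).

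RBPJ, the DNA-binding partner of the Notch intracellular domain, fell in U251T. Vehicle libraries held 499, 658 and 484 CPM and carmofur libraries 351, 406 and 323 CPM. The groups did not overlap, with a log2 fold change of -0.61 (SE 0.159, edgeR adjusted p = 0.0120), but the call was lost without vehicle replicate 2 (edgeR adjusted p = 0.0518), carmofur replicate 1 (0.0659) or carmofur replicate 3 (0.0693). In U251P the log2 fold change was 0.035 (SE 0.108, edgeR adjusted p = 0.999), and the lines did not pass a test of their difference (-0.72, edgeR adjusted p = 0.110). RBPJ has processed pseudogenes elsewhere in the genome, and how reads were divided among such copies was not given, so that its level is uncertain.

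**Figure D5:**
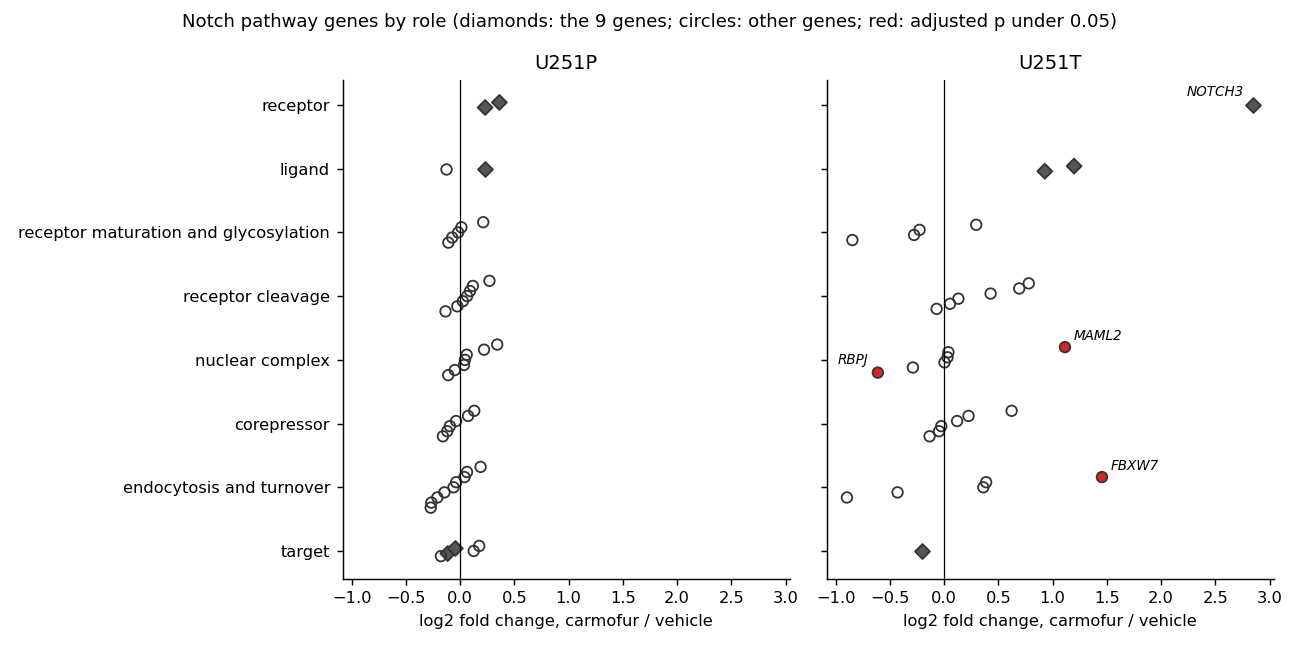
Log2 fold change of carmofur over vehicle by role in U251P (left) and U251T (right), with diamonds for the 9 genes, circles for the other pathway genes and red for an edgeR adjusted p under 0.05 among the latter. FBXW7 (1.45) and MAML2 (1.11) lie above 0 and RBPJ (-0.61) below it in U251T, and no circle is red in U251P.

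Among the pathway genes of U251P, 4 of 38 had carmofur libraries that all lay below vehicle (10.5%, beside 5.5% of all genes), and 0 had them all above (beside 3.04%). They were the corepressors CIR1 (log2 fold change -0.16) and SPEN (-0.12), the ubiquitin ligase ITCH (-0.15) and the nuclear cofactor SNW1 (-0.11). None of these 4 passed the test (edgeR adjusted p = 0.999 for each), nor did their counterparts in U251T, where ITCH was at 0.36 (edgeR adjusted p = 0.0886).

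Between the lines in vehicle, 30 of 37 fitted pathway genes passed (81.1%, beside 86.9% of all genes), 16 higher and 14 lower in U251T. All 6 fitted genes of the nuclear complex (RBPJ, MAML1, MAML2, SNW1, EP300 and CREBBP) passed and were higher in U251T, as were 39.3% of all genes. The remaining gene of this role, MAML3, was not fitted and went the other way. It had 35 counts in U251P vehicle libraries and 4 in those of U251T, a ratio of 0.332 (counting interval 0.0858 to 0.930). MAML1, MAML3, EP300 and CREBBP were named after their values were seen, so that the count for this role is a description. MAML2 (0.57, SE 0.206, edgeR adjusted p = 0.0117) did not pass with DESeq2 (adjusted p = 0.0710, range over the alternatives 0.00708 to 0.774). It was at -0.063 when only genes with at least 10 counts in every library were kept. HES6, a HES family member and the most abundant other target in U251P, held 28.0, 32.2 and 24.7 CPM there and 0 counts in U251T, at least 43.3-fold lower (3 counts over the group). DLL3, an inhibitory ligand, had 75 counts in U251P vehicle libraries and 1 in those of U251T. Both HES6 and DLL3 passed the filter on low counts only through U251P. Of the other roles, the most abundant genes in U251P vehicle libraries were the corepressor NCOR1 (mean 223 CPM), the γ-secretase subunit APH1A (157), the ubiquitin ligase MIB1 (76.7), which acts on ligands, and the receptor protease FURIN (51.1), whose range overlapped that of the fucosyltransferase POFUT1 (50.3).

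The genes whose levels varied most like NOTCH3 were sought by Pearson's r of log2 CPM, centered within each line, over the 12 libraries and 5870 genes. The highest were CAMSAP2, a microtubule minus-end protein (r = 0.963), IVD, an enzyme of leucine breakdown (r = 0.961), ALDH9A1, an aldehyde dehydrogenase (r = 0.960), LAMB1, a laminin chain (r = 0.960), and FAT1, an atypical cadherin (r = 0.958). JAG1 had r = 0.67 with NOTCH3 and ranked 716, and HES1 had r = -0.50. The 12 points share the 2 lines and the treatment, and because NOTCH3 had 0 to 3 counts in each U251P library these values rest on the 6 U251T libraries. Those libraries led to the choice of NOTCH3, and centering within a line keeps the difference between carmofur and vehicle. The r values are therefore a description. FAT1 had a log2 fold change of 1.52 (SE 0.148) in U251T and 0.28 (SE 0.188) in U251P, a difference that is part of its r and not a separate result.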

How the data were processed

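RNA of 12 libraries (QuantSeq FWD kit, which reads 3′ ends) went through Lexogen's BlueBee pipeline, which the authors used for trimming and mapping, and the submitters' processing notes name build hg38. The deposited values are the authors' raw read counts per Ensembl gene identifier, with no normalization. The annotation release, the counting tool and the use of strand are not given in the sources used here, so reads of an antisense or overlapping gene (NOTCH1, JAG1, JAG2, DLL1, HEYL, FBXW7 and MAML2 have one in GENCODE 29) cannot be told apart. NOTCH2 has near copies (NOTCH2NLA had 0 to 4 counts).

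Counts were tested with edgeR (version 4.0.16, quasi-likelihood, TMM, filterByExpr, adjustment by Benjamini-Hochberg over all genes fitted, threshold 0.05) in R (version 4.3.3), for carmofur against vehicle in each line and for the lines in vehicle. SE is the log2 fold change divided by the square root of F. A split of 3 against 3 libraries cannot give an exact p under 0.1. Ratios per total count have exact binomial 95% intervals, which cover counting error only. The r values used log2 CPM with a prior count of 2. Replicate pairs differed by 1.72 to 11.5 in chi-square divided by its degrees of freedom, above the value of about 1 that repeats of a single library would give. Figures were drawn in Python (version 3.11.15). The steps were tested on simulated data.

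The 9 genes and the lists were chosen with earlier results of these data known, and 2 genes were then left out of the lists and are not reported here. Named genes were the 9, pathway genes with an adjusted p under 0.05 in a carmofur contrast, pathway genes whose U251P groups did not overlap, the most abundant pathway gene of each role, and the 5 genes most like NOTCH3. MAML1, MAML3, EP300, CREBBP and POFUT1 were named after their values were seen. Alternatives were DESeq2 (version 1.42.0), other scalings (library totals only was added after seeing the data), other filters, a replicate block, all libraries in 1 fit and each library left out.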

Additional observations from a re-analysis of the deposited data

Results flagged for a closer look

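The carmofur response of FBXW7 differed between the lines by a log2 difference of 1.48 (U251T minus U251P, edgeR adjusted p = 0.000492), with 1.45 in U251T, higher in 3 of 3 carmofur libraries than in any vehicle library, and -0.061 in U251P. Of all 13070 genes, 560 passed this test. The ubiquitin ligase ITCH had carmofur libraries that all lay below vehicle in U251P (log2 fold change -0.15) and all above it in U251T (0.36), and the test of the difference did not pass (0.45, edgeR adjusted p = 0.310).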

How the results depend on the processing

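Most values kept their direction and their side of the threshold under the alternatives run. Exceptions among counts of genes passing the test were 19 of all genes in U251P with no filter on low counts (0 with the filter), and, with only genes of at least 10 counts in every library, 3737 of all genes, 15 pathway genes and 2 of the 9 genes between the lines (10474, 30 and 7 otherwise), where fewer genes were tested. With the replicate block, 1 gene passed in U251P, and 2078 of all genes (1231 without it) and 6 pathway genes (3 without it) in U251T. Deviations of same-numbered libraries correlated at -0.033 to 0.27 in U251P, 0.082 to 0.34 in U251T and -0.040 to 0.014 between the lines. The best match had the same number for replicates 1 and 3 in U251P and replicate 2 in U251T, and another number otherwise. These values do not settle whether the replicate numbers pair the libraries, and the main fits left pairing out. The cause of these shifts was not tested.

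With each library left out, all genes passing ranged from 0 to 1 in U251P (1 without carmofur replicate 3), from 837 to 1195 in U251T and from 10418 to 11028 between the lines. Values near 0 in U251P changed sign, with ranges of -0.15 to 0.092 for HES1 and -0.043 to 0.098 for RBPJ (their signs turned without vehicle replicate 2), and of -0.33 to 0.076 for HEY1 and -0.15 to 0.10 for FBXW7 (without carmofur replicate 1). Omitting vehicle replicate 2 put JAG1 in U251T at 0.90, and omitting carmofur replicate 2 put it at 0.80. MAML2 between the lines was -0.063 with at least 10 counts in every library. Low counts kept 5 of the 9 genes out of the fit in U251T and 4 in the more deeply sequenced U251P, and HEYL had 0 counts in both.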
